A study of Mus musculus with 12 samples.

Results

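Paired immunoglobulin-like receptors (PIR) and the related Lilr receptors were followed in BMDMs (bone marrow-derived macrophages), which grow out of mouse marrow cells in culture. The set held 7 genes, namely Pira2, Gm14548, Pirb, Lilra5 and Lilra6 on chromosome 7, and Lilrb4a and Lilr4b on chromosome 10. It was listed by symbol, with results of these libraries known, and Pira2 and Gm14548 entered because their counts were lower in knockout than in wild-type cells. Of the 7 genes, 5 had a row among the 48526 genes of the count table, and 4 of those had enough counts to be tested. Lilrb4a and Lilr4b had no row under their own identifiers, and their interval is covered by a row whose identifier the annotation names Gm49339.

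The libraries came from BMDMs cultured for 6 days in L929-conditioned medium, with 3 libraries in each of 4 groups. Wild-type cells (WT) and cells homozygous for the HSS9 deletion upstream of Tnf (HSS9 KO, below KO) were each left untreated (UT, labelled PBS) or stimulated for 6 hr with LPS, the endotoxin of Gram-negative bacteria. The LPS dose was not given in the sources used here. Mice were males of 7 to 10 weeks by the study's methods. The labels call the WT animals littermates, while the methods describe purchased C57BL/6 mice and a KO line kept by homozygous breeding, so the deletion and the origin of the mice cannot be told apart. Nothing states that replicates are separate animals, so p-values measure only the spread between libraries, which may be technical.

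The libraries held 26154533 to 36423921 counts each, and intervals from counts cover counting error only. Tnf, downstream of the deletion, had 632 to 761 counts in WT UT, 329 to 360 in KO UT, 19902 to 22172 in WT LPS and 11003 to 11974 in KO LPS. All 8 macrophage markers were detected, with a summed level of 27940 to 34420 CPM (counts relative to library size) over the libraries. Summed levels of neutrophil markers were 20.0 to 21.5 CPM in WT UT, 42.2 to 47.7 in KO UT, 50.4 to 79.3 in WT LPS and 67.1 to 76.2 in KO LPS, with Ly6g at 0 in all 12 libraries. Stromal markers summed to 3.53 to 4.32 CPM in WT UT, 3.64 to 5.44 in KO UT, 1.93 to 4.06 in WT LPS and 6.76 to 8.12 in KO LPS. Markers of B cells reached at most 1.79 CPM, of dendritic cells 3.04, of mast cells 3.79 and of T cells 9.42. The share of counts on short structured RNAs was 3.00% to 3.25% in WT UT, 6.64% to 7.98% in KO UT, 4.04% to 6.89% in WT LPS and 3.23% to 3.43% in KO LPS.

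PIR receptors come in an activating and an inhibitory form that share nearly the same extracellular immunoglobulin domains. The activating PIR-A proteins have a short tail and signal through the Fc receptor gamma chain, encoded by Fcer1g. The inhibitory PIR-B protein, encoded by Pirb, carries tyrosine motifs in a long cytoplasmic tail that recruit phosphatases such as SHP-1, encoded by Ptpn6. Both bind MHC class I molecules, and in macrophages the balance between them is known to set how strongly other signals act. Lilrb4a encodes gp49B, an inhibitory receptor of macrophages and mast cells, and Lilr4b encodes its relative gp49A, which lacks the inhibitory motifs.

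How far reads of one receptor gene can be told from those of another depends on their sequence. The coding sequence of Pira2 was 97.9% identical to that of Gm14548, 96.1% to Pirb, 95.9% to Lilra6 and 74.7% to Lilra5 over the aligned bases. It was closest to Gm15922, a neighbouring PIR copy annotated as a polymorphic pseudogene, at 99.2%. Lilrb4a and Lilr4b were 96.0% identical to each other. Pira2 and Gm14548 encode 680 codons each, Lilra6 663, Lilra5 295 and Pirb 841. The longer reading frame of Pirb includes the long cytoplasmic tail of the inhibitory form.

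Every window of read length in the annotated transcripts was looked up in the transcripts of all other genes. Of the windows of Pira2, 83.9% were found unchanged in at least 1 other gene, including 71.7% in Gm15922, 24.2% in Gm14548 and 14.8% in Pirb. The shared part was 51.6% for Gm14548, 20.6% for Pirb, 11.7% for Lilra6 and 0% for Lilra5. Of the windows of Lilrb4a, 35.1% were shared, and of those of Lilr4b 8.61%. Reads were paired but windows were looked up singly, so a pair with 1 mate outside a shared part may still be placed. The shared percentages are therefore not shares of ambiguous read pairs. How the authors' counting treated reads that fit several genes is not stated, so the counts of Pira2, Gm14548, Pirb and Lilra6 are uncertain in the shared parts.

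**Figure D1:**
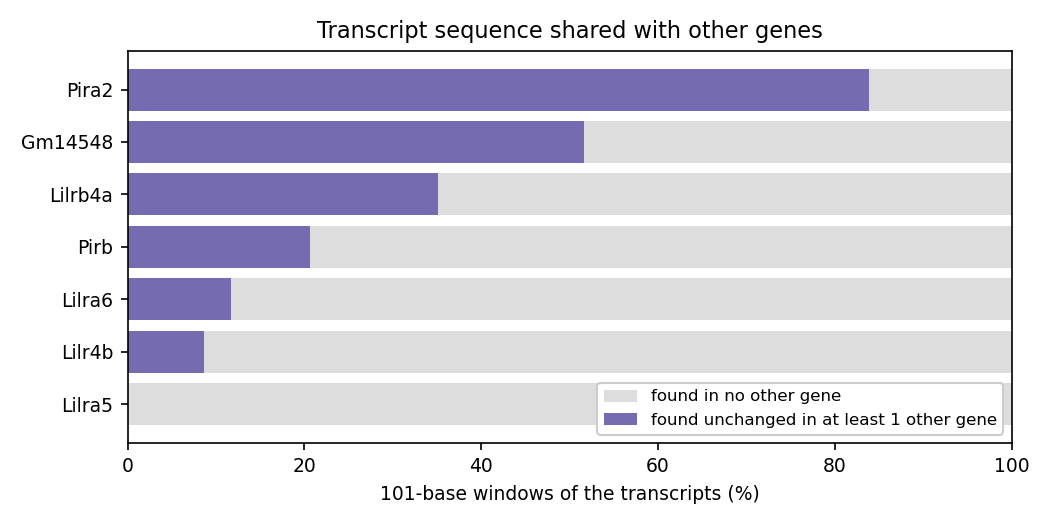
Percent of read-length windows of the annotated transcripts of each of the 7 genes (x axis) that occur unchanged in the transcripts of another gene (purple) or in none (grey). Pira2 shares 83.9% of its windows, Gm14548 51.6% and Lilra5 0%.

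A stretch of each kind shows what separates the genes. The first line is a read-length stretch of the Pira2 coding sequence (GRCm38, chr7:3840964-3841064, minus strand). It occurs letter for letter in 6 other genes, Gm14548, Gm15448, Gm15922, Gm15925, Gm15931 and Pirb. A single read from it has no unique source by itself, though its mate may lie outside the stretch. The other lines are an aligned exonic stretch that starts at coding base 240 in each of 4 genes (GRCm38, minus strand): chr7:3844349-3844449 in Pira2, chr7:3739187-3739287 in Gm15922, chr7:3897410-3897510 in Gm14548 and chr7:3719652-3719752 in Pirb. Capitals mark bases that differ from Pira2, and in the Pira2 line those that differ from Gm15922. Gm15922 and Gm14548 each differ from Pira2 at 7 positions there, and Pirb at 4.
Pira2, shared stretch: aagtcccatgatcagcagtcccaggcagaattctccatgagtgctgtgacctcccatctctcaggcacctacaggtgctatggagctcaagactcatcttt
Pira2, distinct stretch: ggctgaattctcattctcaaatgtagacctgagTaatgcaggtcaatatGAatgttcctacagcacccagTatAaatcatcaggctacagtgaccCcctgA
Gm15922, distinct stretch: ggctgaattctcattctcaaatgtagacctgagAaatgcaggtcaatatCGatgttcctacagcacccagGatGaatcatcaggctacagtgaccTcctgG
Gm14548, distinct stretch: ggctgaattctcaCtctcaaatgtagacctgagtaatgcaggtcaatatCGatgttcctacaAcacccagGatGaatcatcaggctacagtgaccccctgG
Pirb, distinct stretch: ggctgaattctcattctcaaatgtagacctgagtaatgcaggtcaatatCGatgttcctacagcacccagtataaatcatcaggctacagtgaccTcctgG

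The upstream sequences of the PIR genes were also much alike. RefSeq promoters (GRCm38.p6) were matched for 6 of the 7 genes and for Gm15922, which RefSeq names Pira1. The 250 bases before the start of Pirb were 97.7% identical to those of Pira2 over 222 aligned bases, and those of Pira1 were identical to Pira2 over 222. Identity to Pira2 was 94.6% for Gm14548 and 96.0% for Lilra6. They are printed for Pirb, Pira2 and Gm14548 because these genes, described below, moved in opposite directions after LPS from nearly the same upstream sequence. Capitals mark GAGGAA on either strand, the core bound by ETS factors of the PU.1 type. Intervals are chr7:3720383-3720632 for Pirb, chr7:3845052-3845301 for Pira2 and chr7:3898142-3898391 for Gm14548, all on the minus strand.
Pirb, upstream: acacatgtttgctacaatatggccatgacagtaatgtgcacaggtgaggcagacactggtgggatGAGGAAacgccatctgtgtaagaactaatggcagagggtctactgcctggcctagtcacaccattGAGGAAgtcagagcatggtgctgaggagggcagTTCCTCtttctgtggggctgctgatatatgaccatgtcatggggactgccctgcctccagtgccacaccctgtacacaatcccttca
Pira2, upstream: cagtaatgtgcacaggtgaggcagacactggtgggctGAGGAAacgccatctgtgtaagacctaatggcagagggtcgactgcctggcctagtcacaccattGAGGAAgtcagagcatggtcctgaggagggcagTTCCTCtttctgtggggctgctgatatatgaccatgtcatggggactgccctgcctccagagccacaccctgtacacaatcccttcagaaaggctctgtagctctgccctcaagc
Gm14548, upstream: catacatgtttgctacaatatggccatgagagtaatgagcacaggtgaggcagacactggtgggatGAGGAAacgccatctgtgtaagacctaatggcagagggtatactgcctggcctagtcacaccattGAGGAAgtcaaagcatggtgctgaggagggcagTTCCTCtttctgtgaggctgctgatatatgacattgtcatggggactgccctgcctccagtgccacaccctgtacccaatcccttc

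GAGGAA occurred 3 times in the upstream sequence of each of Pirb, Pira1, Pira2, Gm14548 and Lilra6, once in that of Lilra5 and not in that of Lilr4b, while 23.3% of 32851 RefSeq upstream sequences of this length hold it. The AP-1 motif TGANTCA, found in 6.75% of all such sequences, was in none of the 7. The TATA box letters TATAAA, in 12.4% of all, were found only in that of Lilr4b. Both strands were searched, and these matches describe letters, not binding.

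Pirb, the inhibitory receptor (chr7:3711409-3720391, minus strand, ENSMUSG00000058818.13), was by far the most counted of the set. Its counts were 24346, 24403 and 25917 in WT UT and 19628, 18019 and 20909 in KO UT. After LPS they were 53649, 44296 and 41664 in WT and 54345, 56119 and 58461 in KO. Every LPS library was above every UT library. Scaled to library size, Pirb stood at 553 ± 15.6 CPM in WT UT (SD, n = 3 here and below), 541.9 ± 22.2 in KO UT, 1984 ± 18.2 in WT LPS and 2110.0 ± 28.2 in KO LPS.

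Gm49339 (chr10:51480612-51496613, plus strand) spans the whole interval of Lilr4b (chr10:51480632-51486703) and Lilrb4a (chr10:51490956-51496611). Its row carries another version of the identifier than the annotation, so the exons behind its counts are not known. Whether it stands for an older model of one of these receptors could not be settled from the sources used here, and it cannot be divided between gp49A and gp49B. It had 32192 to 37491 counts in WT UT, 24255 to 29215 in KO UT, 44987 to 61175 in WT LPS and 58698 to 61058 in KO LPS. In CPM this was 780.8 ± 24.2, 725.1 ± 13.2, 2242 ± 108 and 2240.0 ± 80.1. The LPS libraries were all above the UT libraries, and with LPS the KO and WT ranges overlapped.

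Pira2, an activating receptor gene (chr7:3836812-3845051, minus strand, ENSMUSG00000089942.9), had 1002, 1037 and 1079 counts in WT UT. In KO UT it had 86, 70 and 52, in WT LPS 371, 335 and 270, and in KO LPS 26, 14 and 27. None of these groups overlapped another. In CPM the levels were 23.1 ± 0.306, 1.95 ± 0.593, 13.9 ± 1.16 and 0.837 ± 0.270.

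Gm14548, a predicted gene of the same cluster (chr7:3884242-3898120, minus strand, ENSMUSG00000074417.9), had 842, 867 and 932 counts in WT UT. It had 242, 192 and 310 in KO UT, 310, 233 and 198 in WT LPS, and 97, 111 and 80 in KO LPS. Its CPM were 19.6 ± 0.368, 6.83 ± 1.11, 10.4 ± 1.11 and 3.60 ± 0.628 in that order. The KO libraries were below the WT libraries of the same treatment, but were not as low as those of Pira2.

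Lilra6 (chr7:3908280-3915503, minus strand, ENSMUSG00000030427.17), annotated as a member of the activating branch, had 1087, 1059 and 1192 counts in WT UT and 565, 581 and 614 in KO UT. With LPS it had 285, 240 and 192 in WT and 198, 215 and 220 in KO. In CPM it stood at 24.7 ± 1.2, 16.3 ± 0.770, 10.1 ± 0.955 and 7.90 ± 0.273. The groups did not overlap in CPM, although the raw counts of the LPS groups did.

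Lilra5 (chr7:4237754-4243463, plus strand, ENSMUSG00000070873.5) was barely detected. It had 22, 12 and 6 counts in WT UT, 6, 3 and 3 in KO UT, 3, 1 and 1 in WT LPS, and 3, 3 and 5 in KO LPS. It did not pass the filter on low counts and was not tested. The summed counts gave a level 4.16-fold lower in WT LPS than in WT UT, with an exact 95% counting interval of 1.64 to 13.5.

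**Figure D2:**
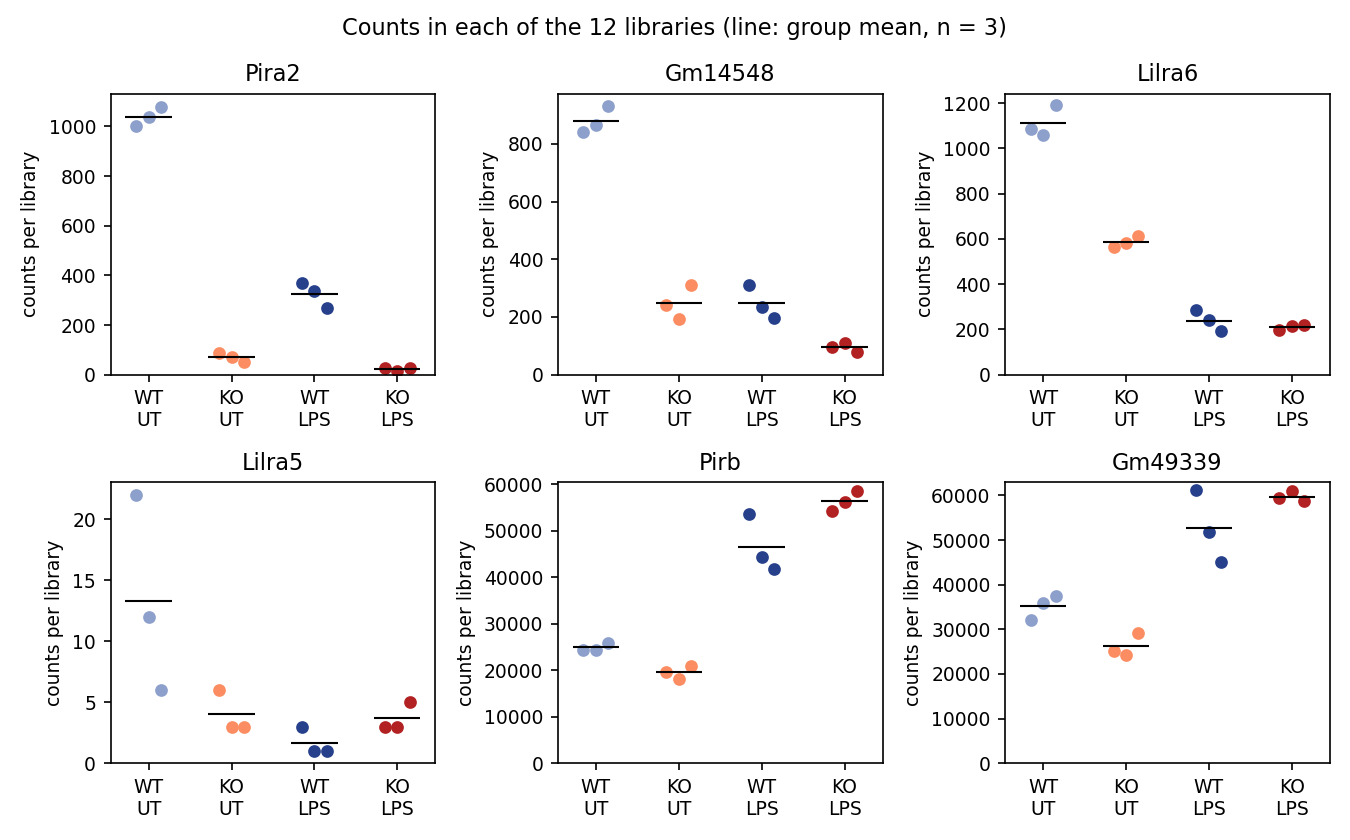
Counts per library (y axis, linear, not scaled to depth) of Pira2, Gm14548, Lilra6, Lilra5, Pirb and Gm49339 in the 4 groups, with 1 point per library and a line at the group mean (n = 3). Pirb and Gm49339 are higher in every LPS library than in any UT library, while Pira2 falls from 1002 to 1079 counts in WT UT to 14 to 27 in KO LPS.

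Between genes, levels were compared per kilobase of exon. In WT UT, Pirb had 123.7 CPM per kb, Gm14548 9.19, Lilra6 8.10, Pira2 6.67 and Lilra5 0.143. After LPS in WT the order was Pirb at 443.7, Gm14548 at 4.91, Pira2 at 4.0, Lilra6 at 3.33 and Lilra5 at 0.0322. In KO, Lilra6 stood next after Pirb, at 5.35 CPM per kb in UT and 2.59 in LPS, followed by Gm14548 at 3.21 and 1.69 and Pira2 at 0.564 and 0.242. No neighbours in these orders overlapped over the 3 libraries of a group. The order among the activating genes depends on the length used. With only windows found in no other gene as length and all counts kept, Pira2 would stand at 41.4 CPM per kb in WT UT. That is above Gm14548 at 19.9 and Lilra6 at 8.25. These values hold only if reads from shared windows went uncounted, which is not known.

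The LPS comparison asked how the receptors respond to stimulation. It was tested because, as far as known, the set was not chosen on it, though results of these libraries were known. Both LPS responses share libraries with the genotype comparison through which Pira2 and Gm14548 entered. In WT cells Pirb rose 3.59-fold, while Lilra6 fell 2.43-fold, Gm14548 1.86-fold and Pira2 1.66-fold. The log2 fold change was 1.84 ± 0.0475 for Pirb (SE; edgeR, adjusted p = 4.5e-19) and -1.28 ± 0.0857 for Lilra6 (edgeR, adjusted p = 1.14e-11). Gm14548 had -0.90 ± 0.116 (edgeR, adjusted p = 4.95e-07) and Pira2 -0.73 ± 0.124 (edgeR, adjusted p = 1.76e-05). A gene was called when its adjusted p was below 0.05 and its log2 fold change beyond 1 in either direction. Of the 4 tested genes, Pirb was called higher, as were 19.1% of all 15523 genes tested, and Lilra6 was called lower, as were 18.7%. At any fold change 1 of the 4 passed as higher, against 38.0% of all genes, and 3 passed as lower, against 35.3%.

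In KO cells the directions were the same. Pirb rose 3.89-fold, at 1.96 ± 0.0477 in log2 (edgeR, adjusted p = 1.59e-19). Lilra6 fell 2.06-fold, with -1.04 ± 0.0894 (edgeR, adjusted p = 7.76e-10), and Gm14548 1.90-fold, with -0.93 ± 0.142 (edgeR, adjusted p = 5.2e-06). Pira2 fell 2.30-fold, with -1.2 ± 0.245 (edgeR, adjusted p = 0.000159). Pirb was called higher, against 17.7% of all genes tested, and Lilra6 and Pira2 were called lower, against 19.3%. At any fold change the shares of all genes were 35.1% higher and 37.7% lower, and 1 and 3 of the 4 genes passed. The call of Pira2 in KO rests on 14 to 86 counts per library, and it was lost without KO UT replicate 1, at a log2 fold change of -0.99, and without KO LPS replicate 2, at -0.96. Gm14548 was past the fold limit under upper-quartile scaling, at -1.08 in WT and -1.11 in KO, and in KO with the short structured RNA share as a covariate, at -1.42, without KO UT replicate 2, at -1.05, and without KO LPS replicate 2, at -1.04.

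Neighbouring genes, listed beside the set, were also counted with responses in both directions. Of these, Gm15922 and Gm15448 were chosen after their values were seen. Gm15922, the copy closest to Pira2 in sequence, rose after LPS 2.15-fold in WT (edgeR, adjusted p = 6.44e-10) and 3.09-fold in KO (edgeR, adjusted p = 1.61e-12), as Pirb did. Gm15448, a coding gene with 96.6% identity to Pira2, fell 2.01-fold in WT (edgeR, adjusted p = 5.08e-07) and 1.74-fold in KO (edgeR, adjusted p = 2.67e-05). Gm49339 rose 2.87-fold in WT (edgeR, adjusted p = 3.37e-17) and 3.09-fold in KO (edgeR, adjusted p = 1.03e-17). Thus Gm15922 and Pira2, with 71.7% of the windows of Pira2 in common, were counted with opposite LPS responses.

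**Figure D3:**
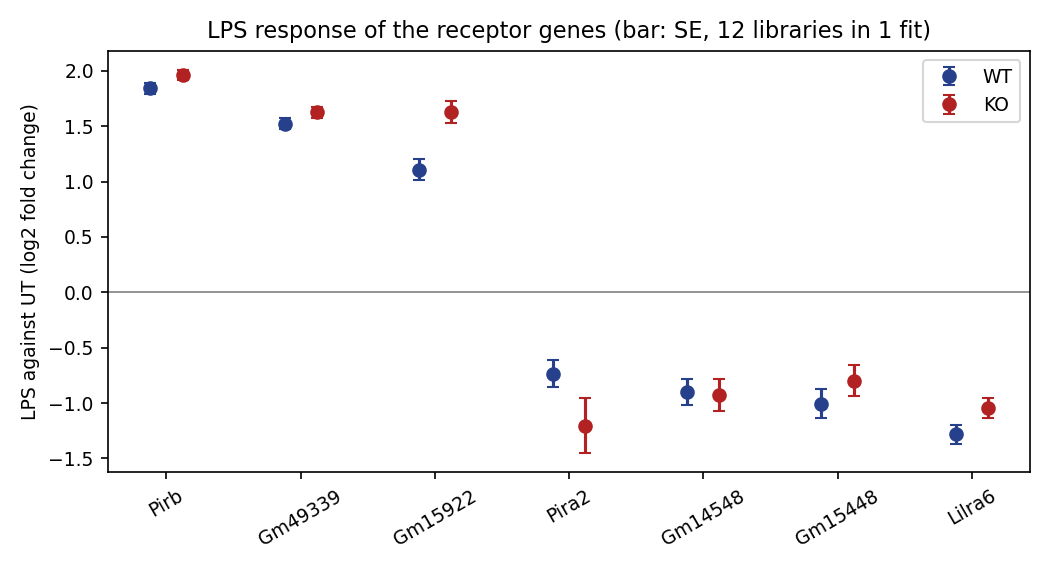
Log2 fold change of LPS against UT (y axis) in WT (blue) and KO (red) for 4 tested genes of the set and for Gm49339, Gm15922 and Gm15448, with SE from a fit of all 12 libraries. Pirb, Gm49339 and Gm15922 lie between 1.11 and 1.96, and Pira2, Gm14548, Gm15448 and Lilra6 between -0.73 and -1.28.

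KO and WT cells were compared to describe the genes on which the set was chosen, so no test is given for its genes. Pira2 was 11.9-fold lower in KO than in WT without LPS, a log2 fold change of -3.58 ± 0.151, and 16.5-fold lower with LPS, -4.04 ± 0.194. Gm14548 was 2.85-fold lower without LPS, -1.51 ± 0.117, and 2.91-fold lower with LPS, -1.54 ± 0.141. That both were past the call limits in both treatments follows from the choice of the set, and nothing is read from it. Among all genes 0.799% were called lower and 1.02% higher in KO without LPS, and 0.664% and 0.586% with LPS. Lilra6 had -0.60 ± 0.0788 and -0.36 ± 0.0963, within the fold limit.

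Pirb, the inhibitory partner, had a log2 fold change of KO against WT of -0.03 ± 0.0462 without LPS and 0.09 ± 0.0460 with LPS. Lilra5 had 12 counts over the KO UT libraries against 40 over the WT UT libraries, and 11 against 5 with LPS. Gm49339 had -0.11 ± 0.0489 without LPS (edgeR, adjusted p = 0.126) and -0.00 ± 0.0488 with LPS (edgeR, adjusted p = 0.993), and the sign of the latter turned with the scaling. Without LPS the adjusted p depended on the fit, with -0.18 under RLE scaling (edgeR, adjusted p = 0.00795) and with DESeq2 (adjusted p = 0.000757), -0.13 under upper-quartile scaling (edgeR, adjusted p = 0.0475), -0.11 in the compared groups only (edgeR, adjusted p = 0.0172) and 0.0495 with the short structured RNA share as a covariate (edgeR, adjusted p = 0.842).

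The markers and library measures that moved with genotype are given beside these values. Without LPS, 4 of the 5 tested neutrophil markers were called higher in KO, and the short structured RNA share was higher in each KO library than in any WT library. With that share as a covariate, Gm14548 in KO UT stood at -0.99 in place of -1.51, within the fold limit. With LPS that share was lower in each KO library than in any WT library, and with the covariate Gm14548 stood at -1.78 in place of -1.54. Pira2 without LPS ranged from -3.67 to -3.57 over the 10 alternative fits that neither left out a single library nor summed genes, this covariate included. With LPS, 4 of the 4 tested stromal markers were called higher in KO. The part of these markers in the result was not tested. Fewer cells that express a receptor and less RNA of it per cell cannot be told apart in bulk libraries.

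Genes around Pira2 were listed by the distance of their start from its own. The table held 26 genes that reach within 200 kb of Pira2, of which 19 were tested. In each treatment 3 of the 19 were called lower in KO, and nothing is read from this count, since Pira2 and Gm14548 are the genes on which the set was chosen and the third, Gm10693, passed the filter on low counts through its WT libraries alone. Gm10693, a transcribed pseudogene whose start lies 24.1 kb from that of Pira2, had 18, 39 and 60 counts in WT UT and 0 in each KO UT library, which makes it at least 31.2-fold lower in KO, with the floor set at 3 counts over the group. With LPS the WT libraries had 14, 5 and 8 counts and the KO libraries 1, 0 and 0, a ratio of 30.7 with an exact 95% counting interval of 5.07 to 1258. Chosen after their values were seen, Gm15448 at -19.4 kb had a log2 fold change of -0.65 ± 0.121 without LPS (edgeR, adjusted p = 0.000349) and -0.45 ± 0.149 with LPS (edgeR, adjusted p = 0.0499), and Gm15922 at -105.2 kb had -0.43 ± 0.0990 (edgeR, adjusted p = 0.00247) and 0.09 ± 0.0915 (edgeR, adjusted p = 0.579). Lair1, an inhibitory collagen receptor whose start lies at 218.2 kb, had -0.11 ± 0.0570 (edgeR, adjusted p = 0.185) and 0.21 ± 0.0595 (edgeR, adjusted p = 0.0216).

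**Figure D4:**
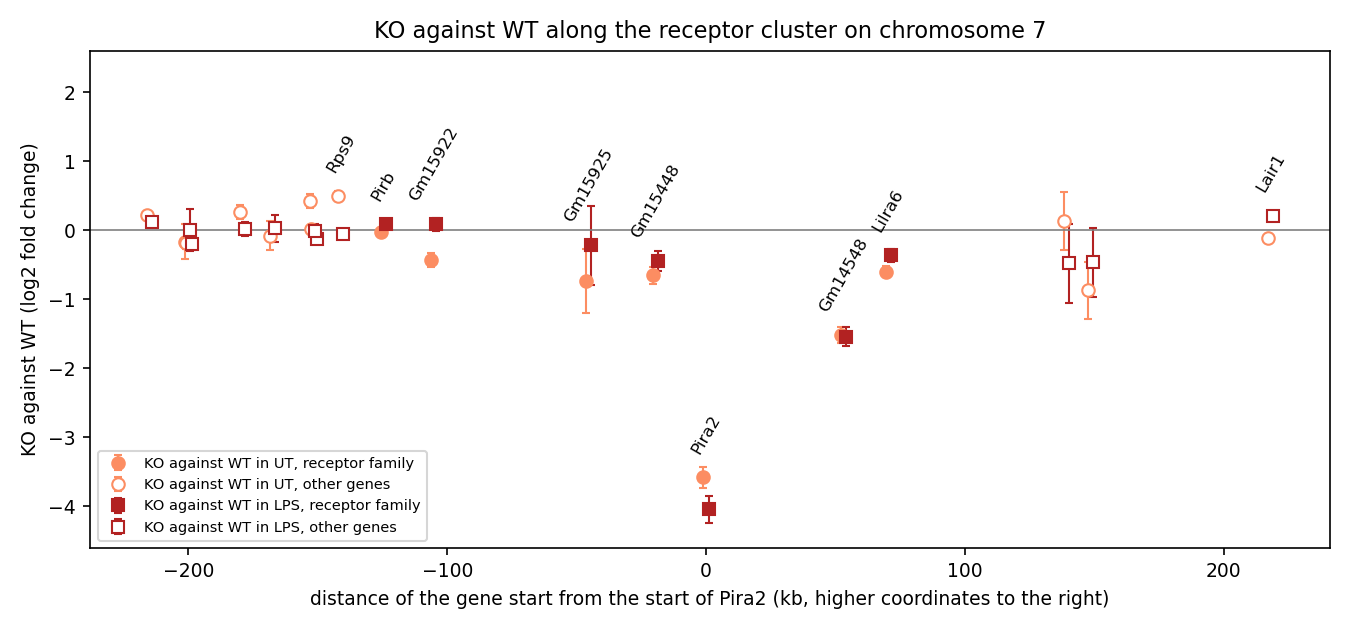
Log2 fold change of KO against WT (y axis, bar: SE) for the tested genes around Pira2 by the distance of their start from that of Pira2 (x axis, kb), without LPS (circles) and with LPS (squares), filled for the receptor family. Pira2 lies at -3.58 and -4.04 and Gm14548 at -1.51 and -1.54, while the other genes shown lie nearer to 0. Gm10693, with 0 counts in KO UT, is not drawn.

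Within 200 kb of Lilrb4a, Gm49339 was the single tested gene of 4 in the table.

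The difference of the LPS responses, KO minus WT, shares its libraries with the genotype comparisons and is given without a test for the genes of the set. It was -0.47 ± 0.279 for Pira2, -0.03 ± 0.182 for Gm14548, 0.24 ± 0.124 for Lilra6 and 0.12 ± 0.0652 for Pirb on the log2 scale. For Pira2 the value ranged from -0.70 to -0.22 when single libraries were left out. For Gm14548 it was -0.79 with the short structured RNA share as a covariate.

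Because reads can pass between near-identical genes, the receptor genes of chromosome 7 were also summed, and no test is given for the sums. The sum of Pira2, Gm14548, Lilra6, Gm15922 and Pirb was higher after LPS, with a log2 fold change of 1.69 ± 0.0470 in WT and 1.90 ± 0.0473 in KO. This sum follows Pirb, which makes up most of its counts. The sum without Pirb, with Gm15448, Gm10693 and Gm15925 added and chosen after seeing the data, had 3669 to 4092 counts in WT UT, 1250 to 1428 in KO UT, 1154 to 1647 in WT LPS and 959 to 1002 in KO LPS. It was -1.2 ± 0.0590 in KO against WT without LPS and -0.69 ± 0.0614 with LPS. Its LPS response was -0.54 ± 0.0585 in WT and -0.02 ± 0.0614 in KO, a difference of 0.52 ± 0.0847. These values depend on which copies are summed. Gm15931, an unprocessed pseudogene of chromosome 7 that shares 3.24% of the windows of Pira2, had 616, 677 and 690 counts in WT UT, 538, 563 and 569 in KO UT, 701, 599 and 505 in WT LPS and 846, 886 and 808 in KO LPS. Its log2 fold change after LPS was 0.80 ± 0.0773 in WT (edgeR, adjusted p = 5.09e-09) and 1.04 ± 0.0766 in KO (edgeR, adjusted p = 6.36e-11), and in KO against WT 0.08 ± 0.0775 without LPS (edgeR, adjusted p = 0.533) and 0.31 ± 0.0760 with LPS (edgeR, adjusted p = 0.0092). With Gm15931 added, also after seeing the data, the sum had -0.25 ± 0.0579 after LPS in WT and 0.37 ± 0.0593 in KO, and -0.93 ± 0.0583 and -0.31 ± 0.0592 in KO against WT without and with LPS.

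The genes whose pattern over the 12 libraries was most like that of each receptor were named by the smallest root mean square difference of centred log2 CPM among 12394 genes. For Pirb these were Pid1 at 0.0609, Stard3 at 0.0616 and Csf3r, the G-CSF receptor gene, at 0.0670, against a range of 2.02 for Pirb itself. For Lilra6, Wdtc1 stood at 0.135 and Adgre4 at 0.143. For Gm14548 they were Gdf3, a TGF-beta family ligand, at 0.205, Plcxd2 at 0.292 and Ccnb2 at 0.399. Pira2 had no close match other than Slc15a2, a peptide transporter gene on chromosome 16, at 0.437, with Gdf3 at 1.12 and Plcxd2 at 1.35 next, against its own range of 5.32. Slc15a2 stood at 8.15 CPM in WT UT, 0.828 in KO UT, 3.91 in WT LPS and 0.363 in KO LPS.

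The signalling partners of the receptors and 3 other lists were described after LPS beside the shares of all genes tested, of which 19.1% were called higher in WT and 17.7% in KO, and 18.7% and 19.3% were called lower. Of 12 genes for adaptors, kinases and phosphatases, 5 were called higher and 1 lower in WT, and 5 were called higher in KO, with a median log2 fold change of 0.52 and 0.71 against 0.05 and -0.06 over all genes tested. Fcer1g, the adaptor of the activating receptors, stood at 238.9 ± 9.19 CPM in WT UT and 626.1 ± 80.5 in WT LPS, a log2 difference of 1.39 ± 0.0699 (edgeR, adjusted p = 7.29e-14). In KO it went from 321.9 ± 12.6 to 647.2 ± 9.54 CPM, 1.01 ± 0.0692 (edgeR, adjusted p = 1.77e-11), close to the fold limit and below it at 0.82 under upper-quartile scaling. Ptpn6, the phosphatase that binds PIR-B, had 0.64 ± 0.0535 in WT (edgeR, adjusted p = 4.98e-10) and 0.84 ± 0.0536 in KO (edgeR, adjusted p = 4.86e-12). Among the kinases Lyn had 1.77 in WT and 2.17 in KO, and Fgr 1.62 and 2.36, and both were called in each genotype. Tyrobp, the adaptor DAP12, had 0.00 ± 0.102 in WT (edgeR, adjusted p = 0.972) and -0.79 ± 0.102 in KO (edgeR, adjusted p = 4.95e-07). With the short structured RNA share as a covariate, Tyrobp was at -0.54 in WT and 0.13 in KO, so its direction is not settled here.

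Of 10 ligand genes, 9 were tested, and 4 were called higher and 2 lower in each genotype, with a median of 0.78 in WT and 0.82 in KO. The MHC class I gene H2-K1 had a log2 fold change of 1.44 ± 0.0533 in WT (edgeR, adjusted p = 3.04e-16) and 1.25 ± 0.0531 in KO (edgeR, adjusted p = 3.58e-15). B2m, the light chain of class I, had 1.37 and 1.03 and was called in both, and H2-D1 had 0.78 and 0.46. Angptl2, a secreted ligand of PIR-B, fell from 74.1 ± 1.43 to 5.94 ± 0.595 CPM in WT, -3.63 ± 0.0858 (edgeR, adjusted p = 9.97e-20), and had -3.41 in KO. Of the integrin chains bound by gp49B, Itgav rose, with 1.32 in WT and 1.53 in KO, and Itgb3 fell, with -1.52 and -1.15.

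Other receptor families also had members moving both ways. After LPS 6 of 14 other inhibitory receptor genes were called higher and 3 were called lower in each genotype, with a median of 0.49 in WT and 0.34 in KO. The largest were Fcgr2b, the inhibitory Fc receptor, with 5.29 in WT and 5.51 in KO, Siglece with 3.96 and 4.11, and Pilra with 3.4 and 3.92. Of 14 other activating receptor genes, 13 were tested. In WT 9 were called higher and 2 lower, and in KO 9 and 3, with medians of 2.48 and 2.88. Clec4e, the Mincle receptor gene, had 5.75 in WT and 5.91 in KO, and Trem1 4.47 and 4.46. Trem3 was nearly absent from WT UT, at 0.0428 CPM, and stood at 6.85 CPM in WT LPS.

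Between genotypes, 0 of the 48 tested genes of these 4 lists were called by edgeR or by DESeq2 in either treatment. Among all genes edgeR called 1.02% higher and 0.799% lower without LPS and 0.586% and 0.664% with LPS, and DESeq2 called 1.77% and 1.29% in either direction, so that a count of 0 among 48 is near the background. At an unadjusted p below 0.05 there were 27 of the 48 in each treatment, against 34.3% of all genes without LPS and 28.5% with LPS. At an adjusted p below 0.05 and any fold change, 25 of the 48 passed without LPS and 20 with LPS, while among all genes 14.1% passed as higher and 9.69% as lower without LPS, and 7.78% and 6.54% with LPS. Fcer1g was higher in KO UT than in WT UT, at 0.43 ± 0.0688 in log2 (edgeR, adjusted p = 7.58e-05), and had 0.05 ± 0.0685 with LPS (edgeR, adjusted p = 0.698). Ptpn6 had -0.04 ± 0.0533 without LPS (edgeR, adjusted p = 0.681) and 0.16 ± 0.0533 with LPS (edgeR, adjusted p = 0.044).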

How the data were processed

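Total RNA of BMDMs was sequenced in 12 libraries, with paired reads from a stranded globin-depletion kit. By the study's methods and the submitters' processing notes, the authors used FastQC 0.11.9, HISAT2 2.1.0 with GRCm38, SAMtools 1.17 and featureCounts 2.0.0, and deposited raw counts per gene. The annotation release, strand setting and treatment of multi-mapping reads are not given in the sources used here. All 12 columns were used.

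Identifiers were matched, without version, to GENCODE M21 (48144 of 48526), and 382 unmatched genes held 0.122% of counts. The sets and lists were chosen with earlier results of these data known. Counts were fitted and tested in edgeR 4.0.16 by quasi-likelihood (limma 3.58.1, R 4.3.3), TMM scaling and filterByExpr (minimum count 10, total 15), which kept 15523 genes. All 12 libraries entered 1 model of 4 group means, with Benjamini-Hochberg adjustment over all genes kept. CPM are counts relative to TMM-scaled library size. Named genes were the 7 receptors, relatives by symbol, called genes within 200 kb, the 3 most similar patterns per receptor (prior count 2, mean CPM of at least 1), and from each list the 3 called genes with the largest LPS change, with Fcer1g, Tyrobp, Ptpn6, H2-K1, H2-D1, B2m and Tnf always named. Genes that the rule names but the text does not are not reported here. Gm15922, Gm15448, Gm15925, Gm15931 and Lair1 were chosen after their values were seen. The rule's protein identity criterion was not applied, and coding sequences were aligned instead with Biopython. Replicate pairs differed by at least 3.73 chi-square units per degree of freedom, more than counting error alone would give. Libraries made separately from 1 animal or culture could differ so too, and the measure cannot tell them from separate animals.

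The library titles give a replicate number and name no batch, and this number was used to pair libraries. Deviations from group means of same-numbered libraries correlated between -0.0631 and 0.0373 over 18 pairs, with 0 over 0.1. Alternatives were other scalings and filters, DESeq2 1.42.0, covariates, a replicate block, summed genes and fits leaving out 1 library.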

Additional observations from a re-analysis of the deposited data

Results flagged for a closer look

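Gm15922, the neighbouring PIR copy closest to Pira2 in sequence, was counted with a larger LPS response in KO than in WT. The difference of log2 fold changes was 0.52 ± 0.135 (edgeR interaction test, adjusted p = 0.0104). Gm15922 was chosen after its values were seen. Its raw counts were 352, 450 and 447 in WT UT and 541, 463 and 396 in WT LPS, which overlap before scaling to library size, and 258, 239 and 240 in KO UT and 567, 572 and 551 in KO LPS, which do not. With the short structured RNA share as a covariate the difference was 0.50 (edgeR interaction test, adjusted p = 0.588). Over the fits that left out 1 library it ranged from 0.44 to 0.60. Of the windows of Pira2, 71.7% occur in Gm15922, so reads of Pira2 may be counted there. How far they enter the difference was not tested.

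Lilra5 was below the WT mean in each KO library without LPS and above it in each with LPS. The ratio of summed counts, KO to WT, was 0.375 without LPS, with an exact 95% counting interval of 0.179 to 0.728, and 1.93 with LPS, with an interval of 0.619 to 7.09 that includes 1. It had 1 to 22 counts per library, and the difference was not tested.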

How the results depend on the processing

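Over 436 recalculated values for the tested receptors, 414 kept their side of the call limits or moved by less than the replicate spread. None of the 352 LPS and genotype values among them changed sign, while 6 of the 84 differences of LPS responses did, all of Gm14548 (-0.03), which was 0.0022 to 0.0577 under RLE scaling, without a filter and with DESeq2 and 0.0542 to 0.1044 in 3 fits that left out 1 library. The number of receptors called after LPS in WT was 2, and 4 at any fold change. It ranged from 2 to 3 when 1 library was left out, because the filter then admits Lilra5, which was called in 8 of the 10 such fits that tested it. Lilra5 comes near the filter through WT UT, its highest group, so nothing is read from these calls. It had -2.16 with DESeq2 (adjusted p = 0.0471) and -2.09 without a filter (edgeR, adjusted p = 0.0517), where it was not called. In KO the number was 3, ranging from 2 to 4 when 1 library was left out. Gm14548 was added under upper-quartile scaling, at -1.08 in WT and -1.11 in KO, which gave 3 and 4 receptors, and with the short structured RNA share as a covariate it was added in KO, at -1.42, which gave 4. It was also added in KO without KO UT replicate 2, which gave 4, and without KO LPS replicate 2, where Pira2 was lost and the number stayed at 3 with other members. The number counted as lower in KO against WT without LPS fell from 2 to 1 with the short structured RNA share as a covariate, and the cause was not tested. The replicate block, fitted for a pairing by replicate number, changed no call of the receptors among 20 values. It left the 2 receptors called after LPS in WT and 3 in KO.

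Summing the chromosome 7 receptors with Pirb turned the LPS changes of Pira2, Gm14548 and Lilra6 to 1.69 in WT and 1.90 in KO, and the KO against WT values of Pira2, Gm14548 and Lilra6 with LPS to 0.0721, by construction, since Pirb makes up most of the sum. The sum without Pirb but with Gm15931 turned the LPS changes of Pira2, Gm14548 and Lilra6 in KO to 0.3748. Per kb of windows found in no other gene, a length chosen after seeing the data, levels in WT UT were 41.4 CPM for Pira2, 19.9 for Gm14548 and 143.8 for Pirb, in place of 6.67, 9.19 and 123.7. All counts of each gene were kept, so these levels are too high if reads from shared windows were counted.

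Values near 0 changed sign. Gm49339 in KO against WT with LPS (-0.00) was 0.0064 under RLE scaling, 0.0268 without a filter and 0.0077 with DESeq2, and from -0.0392 to 0.0294 when 1 library was left out. With the short structured RNA share it was 0.0495 without LPS, and its difference of LPS responses was -0.12. Tyrobp after LPS in WT (0.00) was -0.0402 under RLE and -0.17 under upper-quartile scaling, -0.0493 without a filter, -0.0435 in the compared groups only, -0.54 with the short structured RNA share, -0.0047 with the replicate block, -0.0463 with DESeq2 and from -0.1817 to 0.1606 when 1 library was left out. With that share Tyrobp in KO was 0.13. Gm15925 in KO against WT with LPS (-0.22) was 0.1016 without KO LPS replicate 3 and 0.318 without WT LPS replicate 1, within a range of -0.501 to 0.318 over the fits that left out 1 library. The causes were not tested. A sum of Lilrb4a and Lilr4b was not run, since neither has a row. Upper-quartile scaling moved the median log2 fold change of all genes from 0.05 to -0.14 after LPS in WT and from -0.06 to -0.24 in KO. Without LPS, 159 genes were called higher and 124 lower in KO against WT, and 134 and 168 under RLE scaling. Low counts limit Pira2 in KO, with 14 to 86 counts per library, Gm10693 and Lilra5.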
